A study of Mus musculus with 3 samples.

Results

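Integrated stress and unfolded protein response regulators are 10 genes: Atf4, Ddit3, Ddit4, Cebpb, Cebpg, Xbp1, Atf6, Trib3, Herpud1 and Ppp1r15a. They are 10 of the 9723 genes that could be read in this series, and the array carries 23 probe sets for them, of which 18 passed an expression filter. The genes were chosen by pathway role with their log2 ratios at 2 h and at 4 h against 0 h already known, so every count below is a description of these arrays. The cells were B16 cells, a mouse melanoma line, grown with serum and antibiotics and given 1 µg/ml doxorubicin, an anthracycline that intercalates into DNA and blocks topoisomerase II. RNA was taken at 0, 2 and 4 h, and each time point was read on 1 Affymetrix Mouse430_2 array. No time point was replicated, so no difference has a test. The series has no untreated culture of the later times, so drug and elapsed time or handling cannot be told apart. The description field of the labels names bone marrow-derived macrophages, and the labels of the later samples name an "ET" treatment that they do not explain. Groups here follow the titles.

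The integrated stress response starts with kinases that phosphorylate the translation factor eIF2, which slows protein synthesis in general and favours translation of Atf4. The unfolded protein response adds the membrane sensors IRE1 and ATF6, which act through spliced Xbp1 mRNA and through cleaved ATF6, while its kinase PERK feeds into eIF2. Many of the transcripts read here are short-lived messengers of transcription factors and feedback inhibitors, and in most cells they are known to rise when the endoplasmic reticulum or amino acid supply is stressed.

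At 4 h, 9 of the 10 genes were at least 2-fold lower than at 0 h and Atf6 was the exception. By their brightest probe sets, Cebpb was 19.6-fold lower, Herpud1 7.94-fold, Ddit4 6.23-fold and Atf4 5.83-fold. This order depended on the probe set. The other passing probe set of Cebpb gave 3.71-fold, that of Herpud1 at least 17.7-fold and that of Atf4 3.86-fold. Dimmer passing probe sets of Trib3 and Cebpg gave at least 7.25-fold and 6.90-fold. At 2 h, 7 of the 10 were at least 2-fold lower, and Cebpg and Trib3 came just short at 1.89-fold and 1.91-fold lower. No member was 2-fold higher at either time. Over all 9723 genes the same count gave 5.69% lower and 1.41% higher at 2 h, and 14.4% lower and 2.32% higher at 4 h. These shares depended on scaling. At 4 h 1396 genes were lower and 226 higher, but 872 and 724 with arrays set to equal medians, 991 and 431 with quantile normalization, and 2041 and 50 with scaling to hybridization spike-ins. The 9 members were 2-fold lower at 4 h under each of these scalings. The members' median log2 ratio was -1.17 at 2 h and -1.98 at 4 h, beside -0.01 and -0.07 over all genes. A lower signal in bulk RNA cannot tell fewer expressing cells from less RNA per cell.

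Promoters of Herpud1, Ppp1r15a and Trib3 are shown first because they hold letters that match sequence elements known to be bound by factors of this pathway. RefSeq promoters of the GRCm38.p6 build, from 250 bases before to 50 after the annotated start, were at hand for 9 of the 10 genes, and Atf6 is named only. Each window was searched on both strands for the C/EBP-ATF element TGATGNAA, for the cAMP response element TGACGTCA, for the unfolded protein response element TGACGTGG, and for 2 forms of the endoplasmic reticulum stress element. The long form is CCAAT with CCACG 9 bases on, and the form called II is ATTGG with CCACG 1 base on. None of the matches overlapped another. The first sequence is the 250 bases before the start of Herpud1 (chr8:94386179-94386428, plus strand), with capitals for a reverse C/EBP-ATF element that begins 112 bases before the start and for an endoplasmic reticulum stress element II that begins 52 bases before it.
Herpud1: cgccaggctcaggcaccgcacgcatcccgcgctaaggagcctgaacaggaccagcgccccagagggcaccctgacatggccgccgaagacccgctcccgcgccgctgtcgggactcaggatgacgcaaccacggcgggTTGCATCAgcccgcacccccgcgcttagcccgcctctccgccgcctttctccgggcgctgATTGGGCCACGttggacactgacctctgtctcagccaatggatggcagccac
Ppp1r15a (chr7:45526269-45526518, minus strand, 250 bases before the start) has a cAMP response element that begins 12 bases before the start, in capitals.
Ppp1r15a: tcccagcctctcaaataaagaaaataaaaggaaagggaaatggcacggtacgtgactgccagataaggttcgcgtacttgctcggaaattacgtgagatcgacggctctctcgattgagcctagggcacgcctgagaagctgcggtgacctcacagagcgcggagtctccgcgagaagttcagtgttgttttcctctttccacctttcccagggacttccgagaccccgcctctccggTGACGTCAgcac
Trib3 has a reverse C/EBP-ATF element in capitals, which begins at base 15 of the transcribed side, and 30 bases around it are given (chr2:152344028-152344057, minus strand).
Trib3: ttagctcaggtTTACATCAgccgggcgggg

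Over the 32851 promoter windows of the RefSeq table, 3.97% held the C/EBP-ATF element, 1.79% the cAMP response element, 0.676% the unfolded protein response element, 0.119% the long endoplasmic reticulum stress element and 0.0365% its form II. Among the 9 member windows the counts were 2, 1, 0, 0 and 1. A match is a string of letters and was not tested as a binding site, and a window without a match says only that these letters were not in it. The genes whose promoters held a match were among those lower at 4 h, and so were the 6 whose promoters held none.

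Signals below are probe set intensities after each array was scaled to a 2% trimmed mean of 500. Signals under a floor of 100 were set to 100 before log2, so a ratio that touches the floor is a bound. A probe set passed where its mean log2 signal reached that of 200, and a gene took its brightest passing probe set. Probe sets differ in affinity, so signals are compared between times and never between genes. The error given with a gene is the SD over its passing probe sets. For a gene with 1 passing probe set it is the probe-level SD, which measures how far probe sets for 1 gene differ in log2 ratio, taken over all genes of like signal. Over 4 signal classes of equal size, from the dimmest to the brightest, that SD was 0.54, 0.43, 0.34 and 0.26 at 2 h and 0.64, 0.51, 0.41 and 0.31 at 4 h. Both errors leave out the variation between cultures or arrays.

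**Figure D1:**
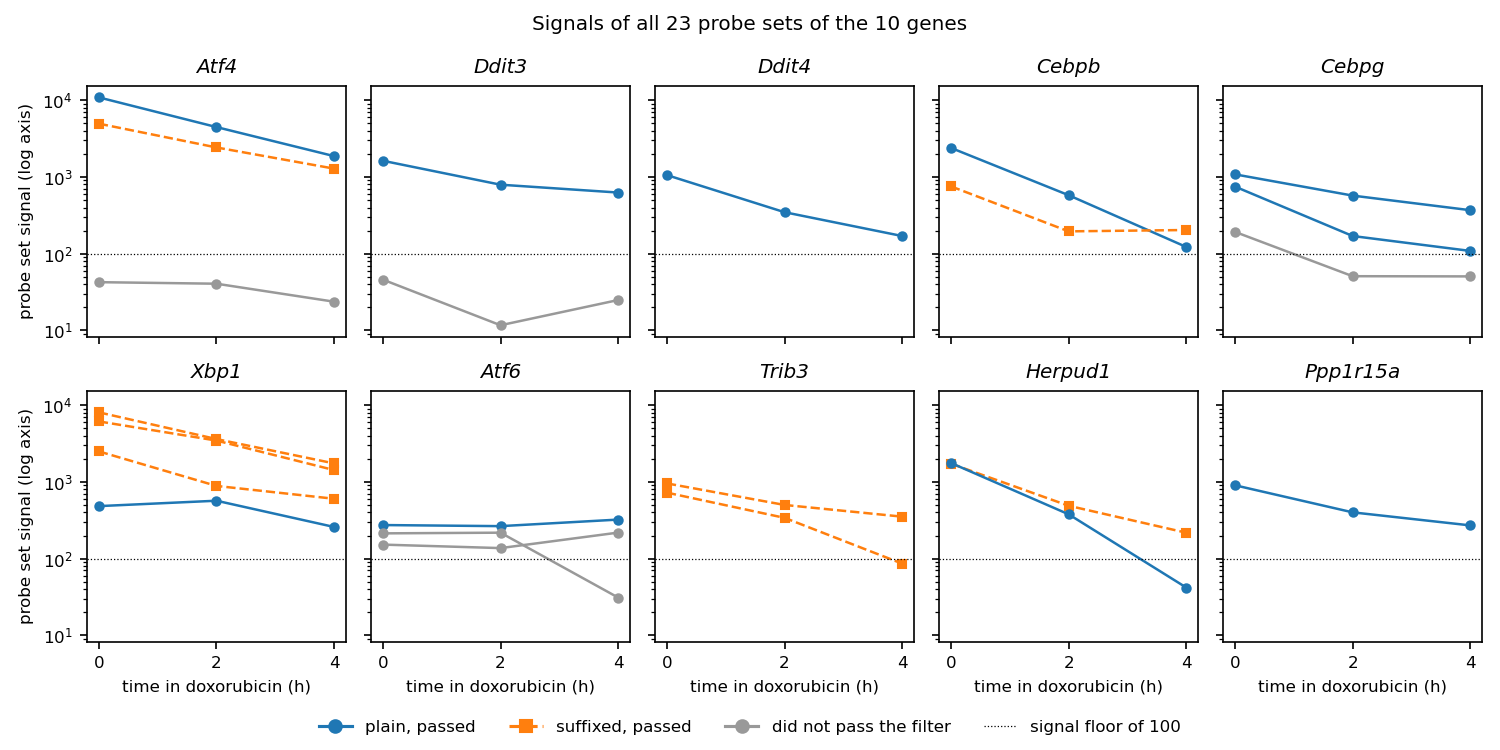
Probe set signal on a log axis against time in doxorubicin (0, 2 and 4 h), with 1 panel per gene and 1 line per probe set. Blue circles are plain probe sets, orange squares suffixed ones, grey lines the 5 probe sets that did not pass, and the dotted line is the signal floor of 100. Passing lines end below their start in 9 panels and stay near level in the Atf6 panel. The suffixed Cebpb line is level after 2 h, and the plain Xbp1 line goes up before it goes down.

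Atf4 encodes the leucine zipper transcription factor at the centre of the integrated stress response (chr15:80255184-80257545). Its plain probe set 1448135_at had signals of 10917, 4477 and 1871 at 0, 2 and 4 h, and the suffixed probe set 1438992_x_at had 4959, 2427 and 1285. Both were lower at each step. The gene stood 2.44-fold lower at 2 h (log2 ratio -1.29 ± 0.18, SD over 2 probe sets) and 5.83-fold lower at 4 h (-2.54 ± 0.42). The 2 h value was 50.5% of the 4 h log2 difference in the plain probe set and 52.9% in the suffixed one, an even course over both steps. The third probe set, 1439258_at, was under the floor on every array and gives no ratio. Atf4 lies in the brightest of the 4 signal classes, where 3.0% of genes were at least 2-fold lower at 4 h.

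Ddit3, Cebpb and Cebpg encode leucine zipper proteins of the C/EBP family that pair with each other and with ATF4. Ddit3, known as CHOP and linked to cell death under lasting stress (chr10:127290793-127296291), had signals of 1628, 793 and 627 at 0, 2 and 4 h in 1417516_at. It was 2.05-fold lower at 2 h (-1.04, probe-level SD 0.34) and 2.60-fold lower at 4 h (-1.38, probe-level SD 0.41). Most of this difference was present at 2 h, 75.3% of it on the log2 scale, and the ratio of 4 h to 2 h was -0.34, close to its probe-level SD of 0.32. Its other probe set, 1443897_at, was under the floor on each array.

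Cebpb, a C/EBP factor of inflammation and differentiation that also takes part in the stress response (chr2:167688915-167690432), had the lowest 4 h ratio of the members by brightest probe set. With probe sets averaged it stood at -3.09, and Herpud1 at or below -3.57. The plain Cebpb probe set 1418901_at had signals of 2395, 579 and 122 at 0, 2 and 4 h. The suffixed 1427844_a_at had 754, 195 and 203. Both were about 4-fold lower at 2 h, 4.14-fold and 3.86-fold, but only the plain probe set went on to a lower signal at 4 h. The log2 ratios at 4 h were -4.29 and -1.89 (SD over the 2 probe sets 1.70), while those at 2 h were -2.05 and -1.95 (SD 0.07). The 19.6-fold difference thus rests on 1 probe set whose 4 h signal lies just above the floor, and the other gives 3.71-fold.

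Cebpg encodes a short C/EBP protein with no activation domain of its own, which pairs with ATF4 (chr7:35046422-35056566). Its 3 probe sets are all plain and were designed from the same database sequence. Signals of 1425262_at were 1082, 572 and 369 at 0, 2 and 4 h, and those of 1451639_at were 749, 170 and 109. The dimmest, 1425261_at, did not pass, with 192, 50.8 and 50.5. All 3 were lower at both later times, but by unequal amounts. The passing probe sets gave log2 ratios of -0.92 and -2.14 at 2 h and of -1.55 and -2.79 at 4 h, whereas their ratios of 4 h to 2 h were nearly equal, at -0.63 and -0.65. The SD over the 2 probe sets was 0.86 at 2 h and 0.87 at 4 h.

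Ddit4, Ppp1r15a and Trib3 are known targets of ATF4 that restrain growth signalling or the response itself. Ddit4, which restrains mTORC1 (chr10:59949675-59951770), had signals of 1058, 347 and 170 at 0, 2 and 4 h in its single probe set 1428306_at. It was 3.05-fold lower at 2 h (-1.61, probe-level SD 0.43) and 6.23-fold lower at 4 h (-2.64, probe-level SD 0.51). Ppp1r15a, also called GADD34, guides a phosphatase to eIF2 and so ends the response (chr7:45522917-45526268). Its signals were 904, 401 and 271 in 1448325_at, 2.25-fold lower at 2 h (-1.17, probe-level SD 0.43) and 3.34-fold lower at 4 h (-1.74, probe-level SD 0.51). On the log2 scale 67.5% of the Ppp1r15a difference was reached at 2 h, beside 60.9% for Ddit4 and 75.3% for Ddit3.

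Trib3 encodes a pseudokinase that binds ATF4 and CHOP and dampens their activity (chr2:152337425-152344060). Both of its probe sets carry suffixes. Signals of 1426065_a_at were 956, 501 and 352 at 0, 2 and 4 h, and those of 1456225_x_at were 725, 340 and 86.0, the last under the floor. At 2 h the log2 ratios were alike, -0.93 and -1.09. At 4 h the first stood at -1.44, 2.71-fold lower, and the second was at least 7.25-fold lower. The suffixed probe sets thus parted only after 2 h, with an SD of 0.11 at 2 h and of at least 1.00 at 4 h.

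Xbp1 encodes the leucine zipper factor whose mRNA the IRE1 nuclease splices (chr11:5520641-5525993). It has 3 suffixed probe sets and 1 plain one, all passing. Suffixed signals were 8081, 3622 and 1744 at 0, 2 and 4 h in 1437223_s_at, 6154, 3462 and 1427 in 1420886_a_at, and 2501, 887 and 603 in 1420011_s_at. The plain probe set 1420012_at had 484, 569 and 259. Suffixed probe sets were thus lower at 2 h and lower again at 4 h, while the plain one was 1.18-fold higher at 2 h and lower at 4 h. Splicing was not analysed here. The suffixed log2 ratios were -1.16, -0.83 and -1.50 at 2 h and -2.21, -2.11 and -2.05 at 4 h. The plain ratios were 0.23 at 2 h and -0.90 at 4 h, 1.87-fold lower. Over the 4 probe sets the SD was 0.75 at 2 h and 0.61 at 4 h.

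Suffixes mark probe sets that the array maker expected to match several transcripts of a gene (_a_at), several transcripts more widely (_s_at) or unrelated sequences in part (_x_at). The plain Xbp1 probe set and 1420011_s_at were designed from the same database sequence, yet their log2 ratios at 2 h were 0.23 and -1.50. The mean suffixed ratio was -1.16 at 2 h. Among 1962 genes with both kinds of passing probe set, 1.99% had a gap between them at least as wide as that of Xbp1 at 2 h, and the median gap was 0.27. At 4 h the plain ratio lay 1.22 above the suffixed mean, a gap reached by 5.05% of genes. Over the second step the 2 kinds moved alike, with ratios of 4 h to 2 h of -1.14 in the plain probe set and -0.96 as the suffixed mean. The plain probe set was also the dimmest of the 4, with a probe-level SD of 0.43 at 2 h, and which of them reads the Xbp1 message was not tested.

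Of the 4 members with both kinds, Cebpb had the widest gap (plain minus suffixed) at 4 h, -2.40, which 0.408% of the 1962 genes matched. For Herpud1 the plain probe set lay at least 1.15 below the suffixed one at 4 h and for Atf4 the gap was -0.60, gaps reached by 6.42% and 23.4% of genes. In these 3 genes the plain probe set was the lower, opposite to Xbp1.

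**Figure D2:**
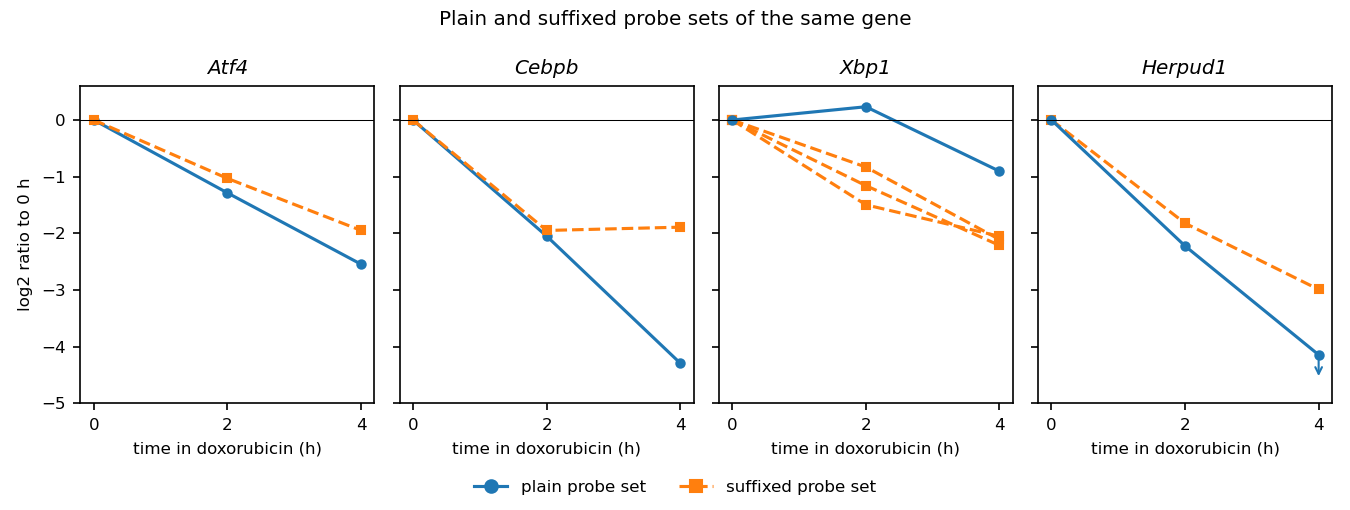
Log2 ratio to 0 h against time in doxorubicin for the 4 genes with passing probe sets of both kinds, plain in blue and suffixed in orange. The arrow marks a bound. Plain and suffixed lines of Atf4 and Herpud1 fan out slowly, those of Cebpb part after 2 h at -2.05 and -1.95, and the plain Xbp1 line lies above all 3 suffixed lines.

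Herpud1 encodes a membrane protein that helps to assemble the machinery by which misfolded proteins leave the endoplasmic reticulum, and its promoter, shown above, held both a C/EBP-ATF element and an endoplasmic reticulum stress element II (chr8:94386429-94395371). Signals of 1435626_a_at were 1729, 489 and 218 at 0, 2 and 4 h, and those of 1448185_at were 1767, 379 and 42.0. Both probe sets were lower at each step. The first was 3.54-fold lower at 2 h and 7.94-fold lower at 4 h. The plain one was 4.67-fold lower at 2 h and, under the floor, at least 17.7-fold lower at 4 h. The SD over the 2 probe sets was 0.28 at 2 h and at least 0.82 at 4 h.

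Atf6 encodes a membrane-bound factor that is cut in the Golgi to release its active part (chr1:170704457-170868585), and it was the 1 member with no 2-fold difference. Signals of its passing probe set 1435444_at were 274, 265 and 323 at 0, 2 and 4 h, with log2 ratios of -0.05 and 0.24 against probe-level SDs of 0.54 and 0.64. Its sign depended on scaling, with -0.09 at 4 h after scaling to the hybridization spike-ins, and 0.11 and 0.14 at 2 h with equal medians and quantile normalization. Its other probe sets did not pass and disagreed, with 152, 137 and 218 in 1453288_at and 213, 218 and 31.0 in 1456021_at. Atf6 lies in the dimmest signal class, so these values say little about its level.

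Between 2 h and 4 h, 5 members were again at least 2-fold lower, namely Atf4, Ddit4, Cebpb, Xbp1 and Herpud1, while 5.41% of all genes were 2-fold lower and 0.843% 2-fold higher over this step. The other members had ratios of 4 h to 2 h between -0.63 and 0.28. By probe set, 13 of the 18 that passed lay 2-fold or more below 0 h at 2 h, and 16 did at 4 h, against 5.68% and 13.9% of 15785 passing probe sets with 1 gene symbol. The exceptions at 4 h were the Atf6 probe set and the plain Xbp1 probe set. The members span the range of signals, with 2 in the brightest signal class, 1 in the next, 6 in the third and 1 in the dimmest. Genes 2-fold lower at 4 h made up 3.0%, 11.9%, 21.1% and 21.4% of these classes in the same order.

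**Figure D3:**
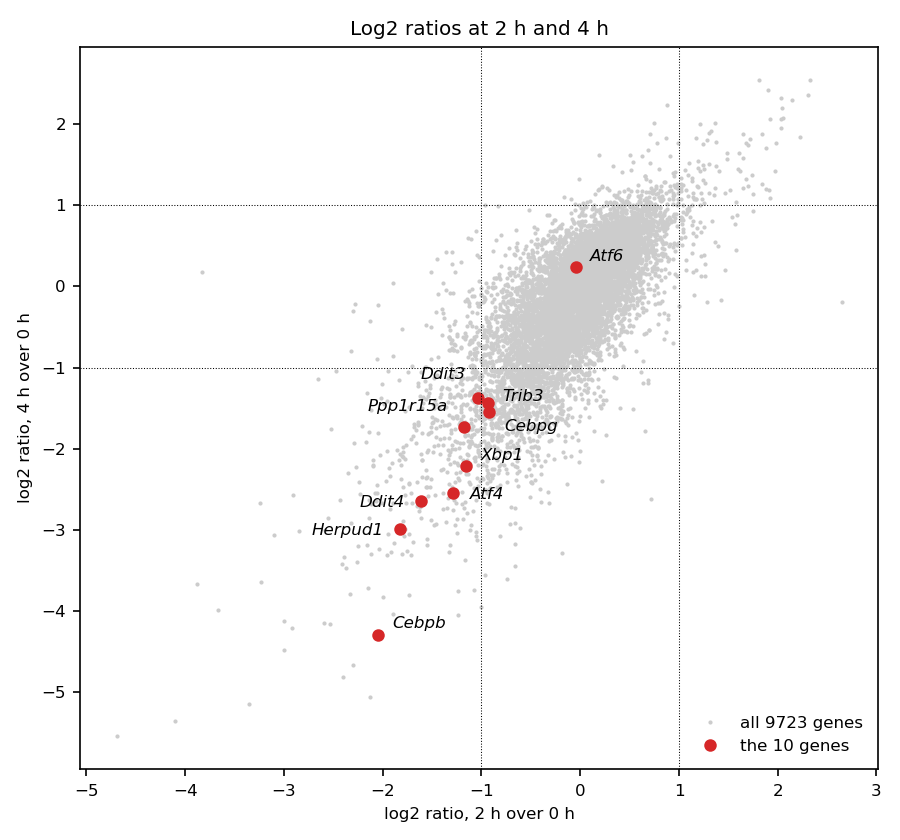
Log2 ratio of 2 h over 0 h (x axis) against log2 ratio of 4 h over 0 h (y axis) for 9723 genes in grey and the 10 genes in red. Dotted lines mark 2-fold. Of the 10 genes, 9 lie below the lower dotted line at 4 h and Atf6 lies inside the cloud at -0.05 and 0.24. Both axes share the 0 h array.

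Genes with the most similar ratios at 2 h and 4 h were found by Euclidean distance over these 2 values, from 3 arrays, among 9564 other genes above the floor throughout. Nearest to Atf4 were Notch2, a Notch receptor, with signals of 1080, 439 and 183 at 0, 2 and 4 h, then Tmem185b and Mrtfa, a coactivator of serum response factor. Nearest to Herpud1 were Mosmo, Mcl1, a survival protein of the BCL2 family, with signals of 2331, 676 and 277, and Dab2ip. Nearest to Ddit3 were 9130019O22Rik, Colec11 and the splicing-related gene Rsrc2, with 1223, 610 and 477 for the last. Distances ran from 0.01 to 0.11 on the log2 scale, well inside the probe-level SD, so the order among these genes has no weight.

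The rest of the pathway was read from 6 lists that were drawn up by role, with earlier results of these arrays known. In the list of eIF2 kinases, eIF2 subunits and exchange factor, 15 of 16 genes were on the array and all 15 passed. Past 2-fold lower were 2 genes at 2 h and 1 at 4 h, none was 2-fold higher, and the median log2 ratio was -0.02 and 0.01. Those lower were 13.3% at 2 h and 6.67% at 4 h, beside 5.69% and 14.4% of all genes. Ppp1r15b, the constitutive partner of the phosphatase that Ppp1r15a also guides, was the lowest, with signals of 4260, 853 and 565 at 0, 2 and 4 h (log2 ratios -2.32 and -2.91). The highest at 4 h was the adaptor Nck1, at 0.54 in 1 dim probe set, inside the probe-level SD of 0.64 of the dimmest class. Eif2ak3, which encodes PERK, was the other gene 2-fold lower at 2 h, with 1499, 601 and 873 (-1.32 and -0.78), and it is named here after its values were seen.

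Among other leucine zipper factors of the ATF, CREB3 and C/EBP groups, 11 of the 16 on the array passed, with 2 past 2-fold lower at 2 h, 3 at 4 h and none higher. Those lower were 18.2% at 2 h and 27.3% at 4 h, beside 5.69% and 14.4% of all genes. With equal medians 0 were lower at 2 h and 2 (18.2%) at 4 h, beside 3.79% and 8.98% of all genes. Quantile normalization gave 1 (9.09%) and 2 (18.2%), beside 4.12% and 10.2%. Spike-in scaling gave 2 (18.2%) and 5 (45.5%), beside 8.91% and 22.3%. In the main scaling the list median was -0.49 at 2 h and -0.63 at 4 h. Cebpd, a C/EBP factor of acute responses, was the lowest, with signals of 927, 449 and 106 at 0, 2 and 4 h (-1.05 and -3.12), and Atf6b, a relative of Atf6, the highest, with 681, 855 and 1025 (0.33 and 0.59). Crebzf and Jdp2 were the other genes 2-fold lower at 4 h, at -1.82 and -1.11, and they are named after their values were seen.

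Of 29 ATF4 and CHOP targets on the array 24 passed, with 2 past 2-fold lower and 1 past 2-fold higher at 2 h. These were 8.33% lower and 4.17% higher, beside 5.69% and 1.41% of all genes. At 4 h 2 were lower and 0 higher, but 1 was lower and 5 were higher with equal medians, and 1 was lower and 1 higher with quantile normalization. In the main scaling those lower at 4 h were 8.33%, beside 14.4% of all genes and 3.0% of the brightest signal class. The list medians were 0.24 at 2 h and 0.29 at 4 h, beside 0.19 and 0.28 in that class. This list is bright, with a median signal of 4822, beside 3456 in the brightest class. Chac1, which degrades glutathione, was the lowest, with signals of 766, 332 and 269 at 0, 2 and 4 h (-1.21 and -1.51). Slc7a11, the cystine carrier, was the highest at 4 h, with 231, 298 and 458 (0.37 and 0.99). It had 1 passing probe set, which was dim. In the 2 dimmest signal classes the probe-level SD was 0.64 and 0.51 at 4 h.

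All 18 XBP1 and ATF6 targets of the endoplasmic reticulum passed, with none 2-fold different at 2 h, and 1 lower and 3 higher at 4 h. These were 5.56% lower and 16.7% higher, beside 14.4% and 2.32% of all genes. The list medians were 0.38 at 2 h and 0.63 at 4 h. Hsp90b1, the chaperone GRP94, was the highest at 4 h, with signals of 7769, 12891 and 17549 at 0, 2 and 4 h (0.73 ± 0.41 and 1.18 ± 0.34, SD over 2 probe sets). Dnajb9, a co-chaperone of BiP, was the lowest, with 1715, 1334 and 706 (-0.36 and -1.28). Bright genes as a whole lay above 0 in this scaling, and the brightest signal class had a median of 0.19 at 2 h and 0.28 at 4 h.

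In the list of endoplasmic reticulum-associated degradation, where Herpud1 acts, 17 genes passed with none 2-fold different at 2 h, and with 3 lower and 1 higher at 4 h. These were 17.6% lower and 5.88% higher, beside 14.4% and 2.32% of all genes. The count lower at 4 h depended on scaling. With equal medians and with quantile normalization it was 1, or 5.88%, beside 8.98% and 10.2% of all genes. With spike-in scaling it was 4 of 16, or 25%, beside 22.3%. Syvn1, the ubiquitin ligase that HERPUD1 binds, was the lowest, with signals of 2345, 1466 and 698 at 0, 2 and 4 h (-0.68 ± 0.21 and -1.75 ± 0.40, SD over 2 probe sets). Derl3, a channel protein of the same route, was the highest at 4 h, at 1.00, from a 0 h signal of 135. It had 1 passing probe set, in the dimmest class, where the probe-level SD was 0.64 at 4 h. Among sensors, proteases and the RNA ligase of the IRE1 and ATF6 arms, 7 of 9 passed, and the 1 gene 2-fold lower at 4 h was the adaptor Traf2 (-0.99 and -1.33). It made up 14.3% of the list, beside 14.4% of all genes. The protease Mbtps2, which takes part in cutting ATF6, was the highest, at 0.29 and 0.70.

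Signs of list medians at 4 h depended on scaling in 4 lists. With scaling to the spike-ins the median of all genes moved to -0.38, and the medians were -0.31 for the eIF2 list, -0.03 for ATF4 and CHOP targets, -0.27 for the sensors and -0.32 for the degradation genes. The sensors were also at -0.03 with quantile normalization. At 2 h the signs of 2 lists turned, to 0.13 for the eIF2 list with equal medians and to -0.20 for the degradation genes with spike-in scaling. The XBP1 and ATF6 targets stayed above 0 in all scalings, from 0.31 to 0.94, but 8 of the 18 were 2-fold higher with equal medians and none with quantile normalization or spike-in scaling, against 3. The 10 regulators stayed below 0, with medians from -2.30 to -1.67.

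**Figure D4:**
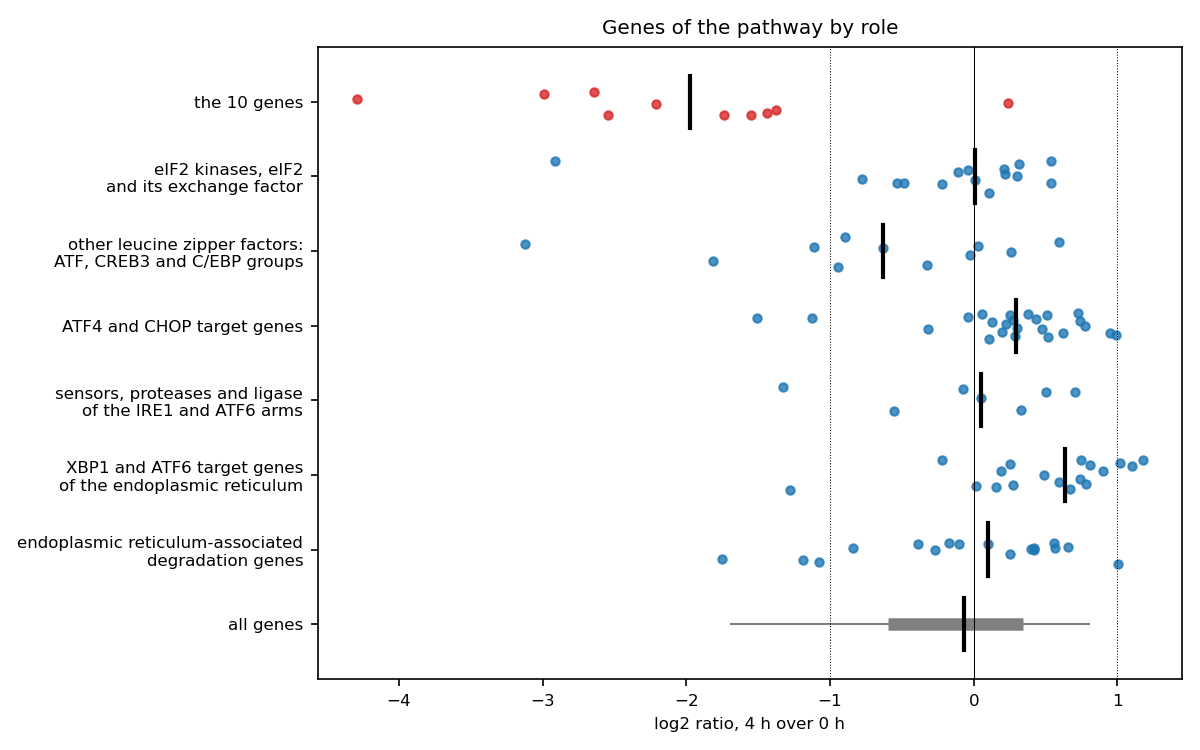
Log2 ratio of 4 h over 0 h for passing genes of each list, 1 point per gene (spread vertically for sight only), with a black bar at the median. The grey bar of all genes spans the 25th to 75th percentile and the thin line the 5th to 95th. Dotted lines mark 2-fold. The median of the 10 genes is -1.98, below those of the 6 lists, which run from -0.63 to 0.63.

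Cell identity and array quality were read over the same arrays. Pigment cell markers passed for 11 of 14 genes, of which 4 were 2-fold lower at 4 h and none was 2-fold higher. Those lower were 36.4%, beside 14.4% of all genes. The list median at 4 h was 0.24, but -0.06 with quantile normalization and -0.08 with spike-in scaling. By their brightest probe sets, the transcription factors Sox10 and Mitf were 13.1-fold and 8.89-fold lower at 4 h. Signals at 0, 2 and 4 h were 11710, 2640 and 892 for Sox10 and 6576, 2031 and 739 for Mitf. The log2 ratios at 4 h were -3.71 ± 0.82 (SD over 3 probe sets) and -3.15 ± 0.69 (SD over 2), so these folds depended on the probe set. The receptor Mc1r was 3.32-fold and Rab38, a small GTPase, 2.08-fold lower. The melanosome enzyme Tyrp1 had signals of 42568, 44083 and 47128. The other passing markers, Dct, Pmel, Mlana, Gpnmb, Slc45a2 and Ednrb, had log2 ratios from 0.24 to 0.45 at 4 h. Tyr (221, 170 and 142), Oca2 (208, 149 and 207) and Kit (149, 24.5 and 84.5) did not pass. Macrophage markers passed for 6 of 14, with a median signal of 176, 158 and 149 over the list. Those that passed were Cd68 (1884, 3044 and 3699), Csf1r (522, 424 and 376), Lyz2 (372, 414 and 398), Adgre1 (302, 197 and 301), Spi1 (330, 172 and 198) and Cd14 (215, 268 and 151). Itgam, Mpeg1, C1qa and Ptprc were under the floor on each array. The others that did not pass were above the floor on some or all arrays. They were C1qb (149, 177 and 156), Fcgr1 (199, 130 and 39.9), Msr1 (152, 143 and 30.6) and Tyrobp (82.4, 51.5 and 146). Fibroblast markers passed for 3 of 8. Over all probe sets the arrays had a median signal of 154, 136 and 126, in order of time. The ratio of 3′ to 5′ control probe sets was 0.826, 0.824 and 0.803 for Gapdh and 1.07, 1.10 and 1.18 for beta-actin. The arrays were washed on modules 3, 4 and 1 of fluidics station 1, and module and time cannot be told apart. The part of signal, module or marker levels in the lower values of the 10 genes was not tested.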

How the data were processed

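The members and the gene lists were chosen with earlier results of these data known. The authors deposited probe set intensities on a linear scale, 1 column per array, already scaled, since the 2% trimmed mean of all 45101 probe sets was 150.0 on each array. The submitters' processing notes name GCOS 1.4. How it computed the signal is not given in the sources used. Arrays were assigned to time points by their titles. From the deposited intensities, each array was scaled to a trimmed mean of 500, floored at 100 and put on the log2 scale. The filter was a mean log2 signal of at least that of 200. Of 34958 probe sets with 1 gene symbol in the platform annotation, 34754 had an Entrez ID found in RefSeq GRCm38.p6 and took its current symbol, changed or not. Another 932 with several symbols were left out, as were 64 controls. The 9211 probe sets with no entry in that annotation were not assigned to genes. Of the lists, Eif2s1, Atf1, Cebpe and Gdf15 matched no named probe set and were not analysed here. Differences of at least 2-fold were counted, and with 1 array per time point no p-value was computed. Named genes were the members, the highest and lowest passing gene of each list at 4 h, and the 3 genes nearest to Atf4, Ddit3 and Herpud1. Eif2ak3, Crebzf and Jdp2 were picked after their values were seen, and the cell markers were named with their values known. Protein sequences were not used here. The counting was tested on simulated data. Scaling, floor, filter, gene summary and probe set choice were varied in 12 alternatives. Python 3.11.15, numpy 2.4.6, pandas 2.3.3 and matplotlib 3.10.9 were used.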

Additional observations from a re-analysis of the deposited data

How the results depend on the processing

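Of 351 ratios of single members recomputed under 12 alternatives, 327 moved by less than the probe-level SD, 23 moved by more and 1 ratio past 2-fold changed sign. That was Xbp1 at 2 h, at 0.23 with suffixed probe sets left out, because its plain probe set then stood alone. Atf6, not past 2-fold, also changed sign, to 0.11 and 0.14 at 2 h with equal medians and quantile normalization and to -0.09 at 4 h with spike-in scaling. The number of members at least 2-fold lower ranged from 6 to 9 at 2 h, from 7 to 9 at 4 h and from 3 to 6 between 2 h and 4 h. Without suffixed probe sets, 7 of 9 members were lower at 4 h, since Trib3 had no probe set left and Xbp1 was at -0.90. The count between 2 h and 4 h was 3 with equal medians (Atf4, Cebpb and Herpud1), against 5. With a gene's probe sets averaged, Herpud1 was at or below -3.57 at 4 h and so under Cebpb at -3.09, and Trib3 was at or below -2.15. At 2 h averaging put Cebpg at -1.53 and Trib3 at -1.01, past 2-fold, and Xbp1 at -0.81 (mean) or -0.99 (median), no longer past it. Over all genes at 2 h, 368 were lower and 229 higher with equal medians, 401 and 233 with quantile normalization, 816 and 54 with spike-in scaling, 530 and 82 with a floor of 200, 1027 and 343 with no filter, and 239 and 34 with a filter of 400, against 553 and 137. At 4 h a filter of 400 gave 780 and 116, and no filter 1947 and 405, against 1396 and 226. Between 2 h and 4 h, equal medians gave 359 and 175, quantile normalization 377 and 141, spike-in scaling 623 and 40, a floor of 200 gave 330 and 46, no filter 754 and 254, and a filter of 400 gave 253 and 23, against 526 and 82. Dim signals limit Atf6 and the 4 h values of Cebpb, Trib3 and Herpud1.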
